A study of Mus musculus with 6 samples.

Results

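ATF4 is the transcription factor through which cells answer amino acid shortage, misfolded protein in the endoplasmic reticulum and mitochondrial damage. The 10 genes described here are Atf4 itself, 3 related stress factors (Ddit3, Atf3 and Atf5), the feedback regulator Trib3, and 5 enzyme genes that ATF4 is known to activate (Asns, Chac1, Phgdh, Psat1 and Mthfd2). They were chosen by name, as the rows of the authors' deposited table whose gene column holds a listed symbol. All 10 were found, 1 row each, among 25927 rows in all, and all 10 lie among the 13347 rows that the authors tested.

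The tested mice carried a muscle-specific knock-out of MLL4SET (MLL4SET-MKO), the catalytic SET part of the histone H3 lysine 4 methyltransferase MLL4, which the gene Kmt2d encodes. Their controls were wild-type mice (WT), and both groups were C57BL/6J, 8 weeks old, with 3 biological replicates each. RNA came from gastrocnemius, a mixed calf muscle. The sources used here do not give the driver of the deletion, or say whether the controls carried an engineered allele. The file names the knock-out column Mll4_mKO.

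The authors gave 1 value for each gene and group in FPKM, a level scaled to transcript length and to the fragments mapped. Values of single mice were not analysed here, so neither the spread among mice nor the overlap of the groups can be printed. Read depth is unknown. A gene was called when q, the authors' p-value adjusted over all tested rows, was under 0.05. Intervals are 95% intervals of the log2 ratio, MLL4SET-MKO over WT, worked back from the authors' test statistic. Kmt2d, the targeted gene, stood at 5.65 FPKM in MLL4SET-MKO and 8.77 FPKM in WT, a log2 ratio of -0.64 (interval -0.90 to -0.38, q = 0.000903 in the authors' deposited table). When the statistic is read as a normal deviate, a stricter reading, its q was 0.13. The fibre marker Mylpf was abundant in both groups, at 6959 FPKM in MLL4SET-MKO and 10773 FPKM in WT, while the estimates of Ckm, Acta1 and Myh4 had failed. Of 7 tested fibre markers, 3 had higher and 4 lower values in MLL4SET-MKO (median log2 ratio -0.11). Mylpf alone was called, beside 11.8% of all tested rows, and it was not called on the stricter reading.

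When a kinase phosphorylates the initiation factor eIF2 alpha, general protein synthesis falls while translation of the Atf4 message increases. ATF4 is thus controlled largely after transcription of its own gene, so its mRNA level is not a measure of its activity. As a dimer with C/EBP proteins it binds a composite site, the C/EBP-ATF response element, in genes of amino acid supply, serine synthesis and mitochondrial folate metabolism. In skeletal muscle this response is best known from mitochondrial disease models, in which serine and folate enzyme genes increase together.

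The promoter sequences below are shown because the element through which ATF4 acts can be looked for in them directly. They are RefSeq sequences of build GRCm38.p6, 5′ to 3′ on the strand of the gene, from 250 bases before to 50 bases after the transcript start. All 10 genes had at least 1 window, 12 windows in all, and the motifs were chosen after the windows had been read. Capitals mark matches, on either strand, to the element TGATGNAA or to its variant TGACGNAA. Chac1 and Atf3 each hold both, Asns and Trib3 hold the element alone and are shown as 28 bases around it, and Mthfd2, the gene of the 10 with the log2 ratio farthest from 0, holds neither.
Chac1, chr2:119350992-119351291, plus strand: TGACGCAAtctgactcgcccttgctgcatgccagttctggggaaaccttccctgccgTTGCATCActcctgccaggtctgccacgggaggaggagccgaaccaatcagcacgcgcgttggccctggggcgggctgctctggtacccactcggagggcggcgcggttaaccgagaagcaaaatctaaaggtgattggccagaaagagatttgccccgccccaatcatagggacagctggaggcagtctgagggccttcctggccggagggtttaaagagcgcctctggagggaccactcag
Atf3, chr1:191183284-191183583, minus strand: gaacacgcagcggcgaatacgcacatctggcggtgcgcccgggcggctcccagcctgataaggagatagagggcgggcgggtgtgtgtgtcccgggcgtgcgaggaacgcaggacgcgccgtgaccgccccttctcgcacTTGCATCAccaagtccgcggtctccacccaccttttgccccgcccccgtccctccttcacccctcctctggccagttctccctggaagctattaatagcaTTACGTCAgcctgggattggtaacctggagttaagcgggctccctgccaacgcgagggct
Asns, chr6:7693215-7693242, minus strand: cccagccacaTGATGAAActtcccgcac
Trib3, chr2:152344029-152344056, minus strand: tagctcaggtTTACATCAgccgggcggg
Mthfd2, chr6:83317555-83317854, minus strand: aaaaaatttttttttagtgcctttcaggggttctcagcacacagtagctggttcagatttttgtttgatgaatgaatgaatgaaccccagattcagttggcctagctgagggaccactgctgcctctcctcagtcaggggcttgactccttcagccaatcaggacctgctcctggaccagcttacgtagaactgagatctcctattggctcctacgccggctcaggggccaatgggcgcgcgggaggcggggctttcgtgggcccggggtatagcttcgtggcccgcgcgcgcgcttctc

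**Figure D1:**
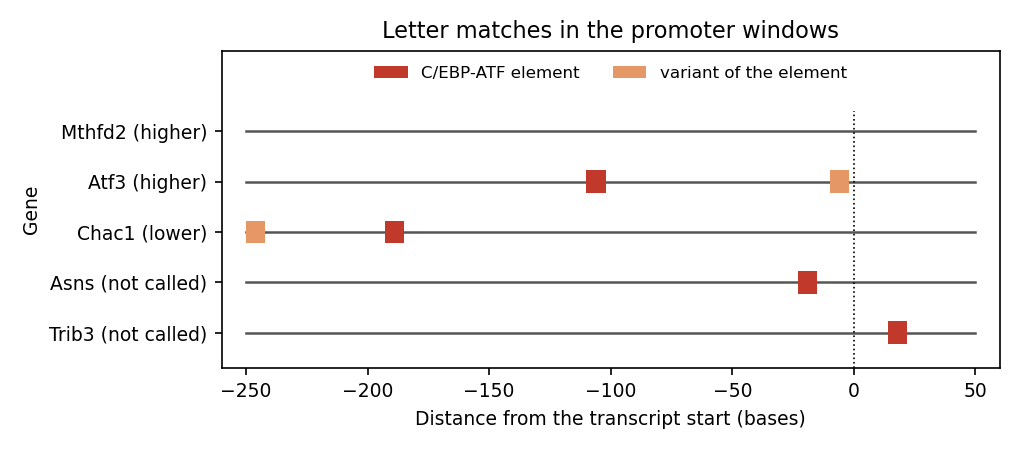
Matches to the C/EBP-ATF response element (red) and to its variant (orange) along 5 promoter windows, by distance from the transcript start in bases. The element begins at -193 in Chac1, -110 in Atf3, -23 in Asns and 15 bases after the start in Trib3, and the Mthfd2 window has no match.

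Mthfd2 rose, Atf3 rose, Chac1 fell and Atf5 fell in MLL4SET-MKO muscle, and the other 6 genes, Atf4 among them, were not called. So 2 of 10 were called higher, against 4.44% of all tested rows, and 2 of 10 lower, against 7.41%. In either direction 4 of 10 were called, against 11.8%. The 10 genes were chosen with earlier results of these data known, so these shares describe the list and are no test of enrichment. The calls went in opposite directions, and the median log2 ratio of the 10 genes was -0.04, beside -0.03 over all tested rows. On the stricter reading Mthfd2 and Chac1 passed and Atf3 and Atf5 did not, against 3.11% of all rows.

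**Figure D2:**
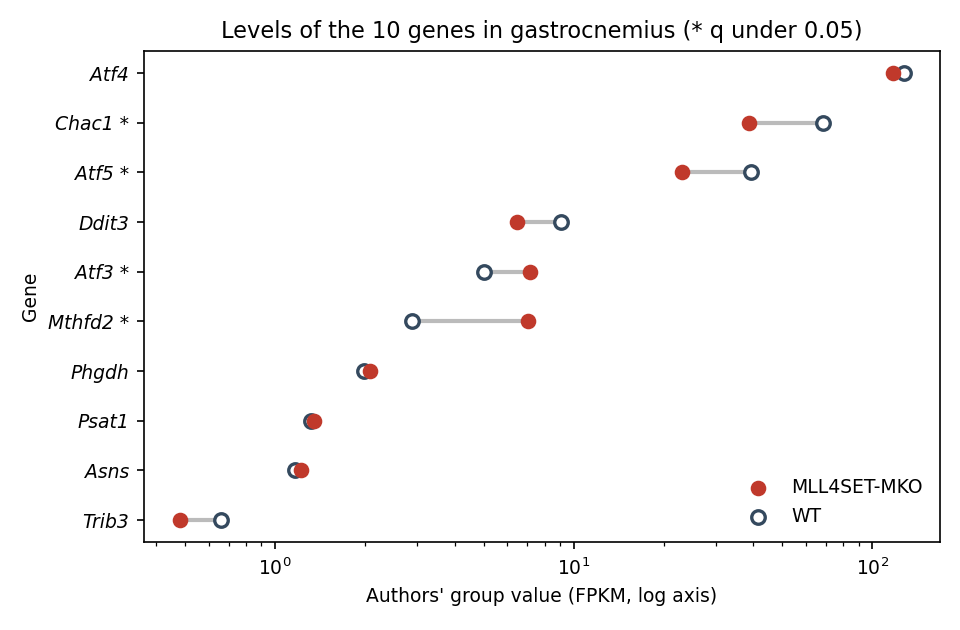
Authors' group values of the 10 genes in FPKM on a log axis, MLL4SET-MKO as filled and WT as open circles, ordered by the WT value; a star marks q under 0.05. The WT values run from 127 FPKM (Atf4) to 0.660 FPKM (Trib3), and the widest gap on this axis is that of Mthfd2, at 7.05 FPKM in MLL4SET-MKO and 2.89 FPKM in WT.

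Among the transcription factors, Atf4 (chromosome 15, 80255184 to 80257545, plus strand) was by far the most abundant message. It stood at 117 FPKM in MLL4SET-MKO and 127 FPKM in WT, above 95.9% of tested rows in MLL4SET-MKO and 96.0% in WT. The log2 ratio was -0.12, with an interval of -0.36 to 0.13, and q was 0.66 in the authors' deposited table. This is the narrowest interval of the 10 genes, and it holds no change larger than 0.36 on the log2 scale. With the statistic read as a normal deviate, the Atf4 interval was wider, at -0.54 to 0.31.

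Atf5 encodes a bZIP factor closely related to ATF4, translated under stress in a similar way and known for its part in the mitochondrial stress response. Its row lies on chromosome 7 between 44812256 and 44849079, minus strand. The level was 23.1 FPKM in MLL4SET-MKO and 39.1 FPKM in WT, a log2 ratio of -0.76 (interval -1.18 to -0.34, q = 0.0085 in the authors' deposited table). This locus is shared with 2 other rows. The row of Il4i1, Nup62 and Nup62-il4i1 had a log2 ratio of -0.39 (interval -0.89 to 0.11) and Tbc1d17 one of 0.12 (interval -0.34 to 0.57), and neither was called. In GENCODE M21, 82 exonic bases of Atf5 lie over exons of Nup62 and of Il4i1 on the opposite strand. The sources used here do not say whether counting used strand, so fragments there could belong to either gene. On the stricter reading q was 0.53 and Atf5 was not called. The standard error of the Atf5 ratio was 0.21, above the median of 0.13 for rows between 20 and 100 FPKM.

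Atf3 encodes a stress-induced bZIP factor that in many settings restrains the genes ATF4 activates. Its locus is on chromosome 1, 191170297 to 191183333, minus strand, and no other row shares it. The level was 7.17 FPKM in MLL4SET-MKO and 5.02 FPKM in WT, 1.43-fold higher, with a log2 ratio of 0.51 (interval 0.19 to 0.84, q = 0.0269 in the authors' deposited table). On the stricter reading of the statistic its interval was -0.05 to 1.08, with q = 0.74 from the authors' statistic (Benjamini-Hochberg over all rows), so this call depends on how the statistic is read. Of all tested rows, 7.34% had a log2 ratio at least as high.

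Atf3 is also an immediate early gene of macrophages and other cells, and macrophage markers moved with it. Of 11 listed markers, 6 were called higher, beside 4.44% of all tested rows, and the values of all 11 were above those of WT. On the stricter reading 1 of the 6 calls held, that of Lyz2. Their summed level was 159 FPKM in MLL4SET-MKO and 100.3 FPKM in WT, the median log2 ratio was 0.50, and no marker was at 0. The lysozyme gene Lyz2 stood at 77.3 FPKM in MLL4SET-MKO and 43.2 FPKM in WT, and the complement genes C1qa and C1qb at 19.2 and 18.4 FPKM in MLL4SET-MKO and at 12.9 and 12.1 FPKM in WT. The part of these cells in the Atf3 value was not tested, and in whole muscle more cells of a type and more RNA per cell cannot be told apart. Neutrophil and lymphocyte markers reached at most 0.148 FPKM in MLL4SET-MKO and 0.142 FPKM in WT, with Elane, a neutrophil elastase gene, at 0 in both.

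Ddit3 encodes CHOP, the factor that is induced downstream of ATF4 and is known for promoting cell death under lasting stress. Its level was 6.46 FPKM in MLL4SET-MKO and 9.06 FPKM in WT. The log2 ratio of -0.49 had an interval of -1.35 to 0.37 and was not called (q = 0.62 in the authors' deposited table). The locus, on chromosome 10 from 127290793 to 127311786, is shared with the methionyl-tRNA synthetase gene Mars on the opposite strand, whose log2 ratio was -0.05. Mars was more abundant, at 26.2 FPKM in MLL4SET-MKO and 27.2 FPKM in WT. In GENCODE M21, 68 exonic bases of Ddit3 lie over exons of Mars and 13 over those of Gm4189, both on the opposite strand. As for Atf5, fragments there could belong to either gene. The standard error of Ddit3, 0.44, was the largest of the 10 genes and compares with a median of 0.14 for rows between 5 and 20 FPKM. The interval holds a fall of more than 1 as well as a small rise, so this gene was not resolved.

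Trib3 encodes a pseudokinase that CHOP and ATF4 induce and that dampens both ATF4 and insulin signalling. It was the least abundant of the 10, at 0.481 FPKM in MLL4SET-MKO and 0.660 FPKM in WT (chromosome 2, 152337425 to 152344060, minus strand). It is the single gene of the 10 with a mean under 1 FPKM. The log2 ratio was -0.46, with an interval of -1.16 to 0.24 and q = 0.50 in the authors' deposited table. A tested row under 1 FPKM had a median standard error of 0.35, so a difference of this size was not detectable at the precision of the table.

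Chac1 had the lowest log2 ratio of the 10. It encodes a gamma-glutamylcyclotransferase that degrades glutathione in the cytosol to 5-oxoproline and cysteinyl-glycine, and in cultured cells its message is among the most responsive to ATF4. Chac1 (chromosome 2, 119351242 to 119354327, plus strand) stood at 38.7 FPKM in MLL4SET-MKO and 68.1 FPKM in WT. Its level was the second of the 10 in both groups, above 88.2% of tested rows in MLL4SET-MKO and 92.8% in WT. The log2 ratio was -0.82, a ratio of 0.568 (interval of the log2 ratio -1.09 to -0.54, q = 0.000903 in the authors' deposited table). Of all tested rows, 3.97% had a log2 ratio as low or lower. The locus holds no other row, and the call held on the stricter reading (q = 0.0308, from the authors' statistic with Benjamini-Hochberg adjustment over all rows).

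Asns, which makes asparagine from aspartate and glutamine, is a textbook ATF4 target. Its level was 1.22 FPKM in MLL4SET-MKO and 1.17 FPKM in WT (chromosome 6, 7675171 to 7693182, minus strand). The log2 ratio was 0.06 with an interval of -0.46 to 0.58, and q was 0.94 in the authors' deposited table. The Asns and Chac1 promoters both hold the element, and Asns was not called while Chac1 fell. On the stricter reading their intervals, -0.84 to 0.96 for Asns and -1.30 to -0.34 for Chac1, overlapped. A difference between these genes was not tested.

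Of the 3 serine and folate enzymes, Mthfd2 rose and the other two were not called. Phgdh and Psat1 encode the enzymes of the first and the second step by which serine is made from a glycolytic intermediate. Phgdh (chromosome 3, 98313171 to 98339969, minus strand) stood at 2.08 FPKM in MLL4SET-MKO and 1.99 FPKM in WT, a log2 ratio of 0.06 (interval -0.37 to 0.49, q = 0.93 in the authors' deposited table). Psat1 (chromosome 19, 15905123 to 15925059, minus strand) stood at 1.35 FPKM in MLL4SET-MKO and 1.32 FPKM in WT, a log2 ratio of 0.03 (interval -0.46 to 0.52, q = 0.97 in the authors' deposited table). The Psat1 interval leaves room for a difference of about 0.5 in either direction, and that of Phgdh ends at -0.37 and 0.49. On the stricter reading the intervals ran from -0.68 to 0.81 for Phgdh and from -0.82 to 0.88 for Psat1.

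Mthfd2 encodes the mitochondrial dehydrogenase and cyclohydrolase that oxidises folate-bound carbon taken from serine, an enzyme abundant in embryonic and dividing cells and low in most adult tissues. It lies on chromosome 6 between 83305704 and 83317604, minus strand, with no other row at its locus. Its level was 7.05 FPKM in MLL4SET-MKO and 2.89 FPKM in WT, 2.44-fold higher. The log2 ratio was 1.29 (interval 0.94 to 1.63, q = 0.000903 in the authors' deposited table). Of all tested rows, 1.99% had a log2 ratio at least as high, and the call held on the stricter reading (q = 0.00175, from the authors' statistic with Benjamini-Hochberg adjustment over all rows). The interval of Mthfd2 lay above those of Phgdh and Psat1, but on the stricter reading, with a lower bound of 0.69 for Mthfd2 and upper bounds of 0.81 for Phgdh and 0.88 for Psat1, they overlapped. A test of the difference between these genes was not made.

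**Figure D3:**
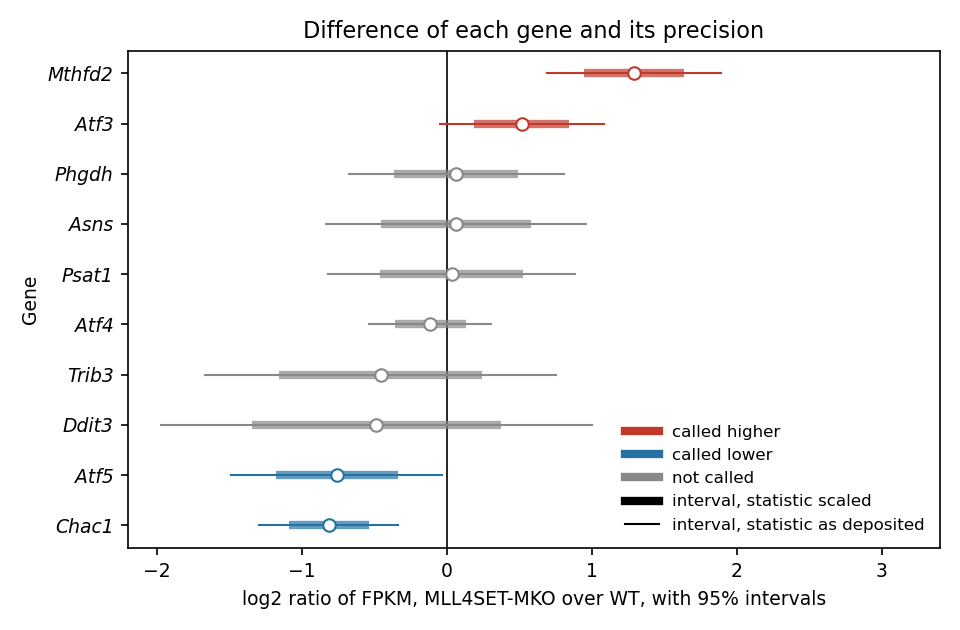
Log2 ratio of FPKM, MLL4SET-MKO over WT, with 95% intervals: thick bars use the scaled statistic and thin lines the statistic as deposited. Mthfd2 lies to the right of 0 and Chac1 and Atf5 to the left with both, Atf3 to the right with the thick bar alone, and the 6 genes in grey span 0.

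**Figure D4:**
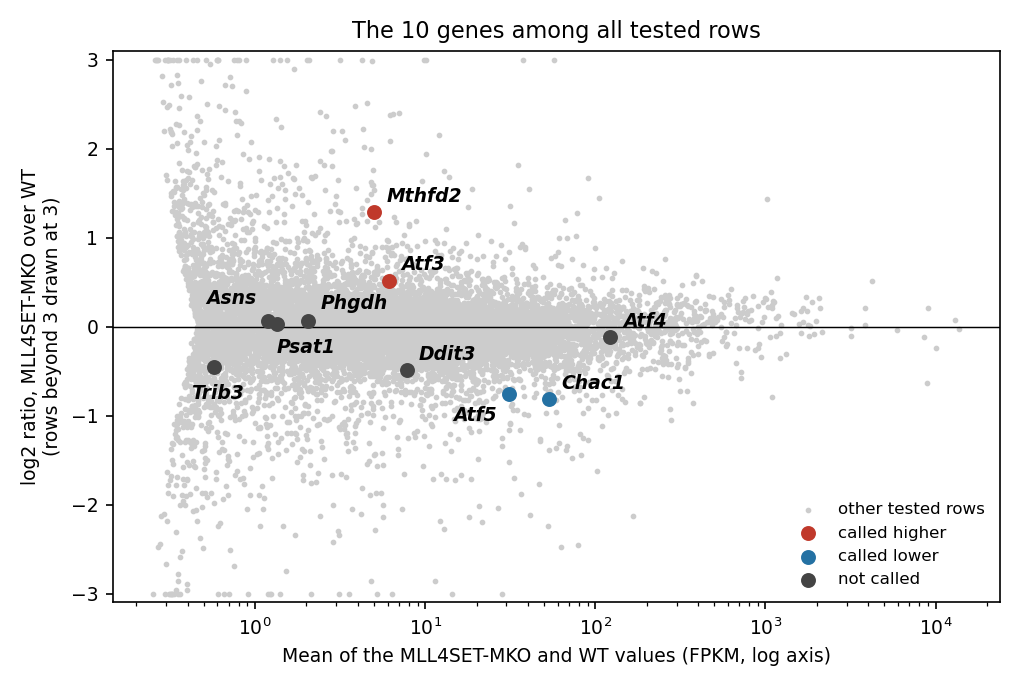
Log2 ratio, MLL4SET-MKO over WT, against the mean of both groups in FPKM on a log axis, for all tested rows (light grey, rows beyond 3 drawn at 3) and the 10 genes (named; red called higher, blue called lower, dark grey not called). Mthfd2 at 1.29 and Chac1 at -0.82 lie in the outer part of the rows of their level, while Asns, Psat1 and Phgdh lie near 0 at levels under 2.1 FPKM where the rows scatter widely.

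Precision also differed with level over all tested rows. The median standard error of a log2 ratio was 0.23 for tested rows of 1 to 2 FPKM, which hold Asns and Psat1, and 0.13 from 100 FPKM upward, which hold Atf4. The share of rows called was 11.2% under 1 FPKM, 9.30% from 1 to 2 FPKM and 15.6% from 20 to 100 FPKM, the range of Chac1 and Atf5.

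Other genes of the same pathway were described from 8 lists, chosen with earlier results of these data known, by counts and medians alone. Some genes are in more than 1 list, so the counts of different lists are not separate evidence. Upstream, the list of eIF2 alpha kinases, eIF2 and eIF2B subunits and phosphatase genes had 20 tested genes. Of these, 1 was called higher and 3 lower (median log2 ratio -0.0021), beside 4.44% and 7.41% of all tested rows. None of these 4 calls held on the stricter reading. Eif2ak2, the kinase PKR that responds to double-stranded RNA, stood at 2.57 FPKM in MLL4SET-MKO and 1.59 FPKM in WT (log2 ratio 0.69). Impact, an inhibitor of the amino acid sensing kinase GCN2, stood at 7.95 FPKM in MLL4SET-MKO and 12.9 FPKM in WT (log2 ratio -0.70). The phosphatase catalytic subunits Ppp1cb and Ppp1cc had log2 ratios of -0.52 each. The other phosphatase genes of the list, Ppp1r15a, Ppp1r15b and Ppp1ca, had log2 ratios of 0.23, 0.13 and -0.26 and were not called. They were named after their values were seen. Eif2ak4, the GCN2 gene, and Eif2ak3, the PERK gene, were named after their values were seen and were not called, with log2 ratios of -0.10 and 0.01.

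Among 39 other ATF4 targets, 32 were tested, and 6 were called higher and 4 lower (median log2 ratio 0.07), beside 4.44% and 7.41% of all tested rows. Of those called lower, Cebpb and Cebpg (the latter named after its values were seen) are also in the list of bZIP genes and called lower there. On the stricter reading 2 of the 10 calls held, those of Slc6a9 and Gadd45a. Slc6a9, the glycine transporter GlyT1, had the lowest ratio, at 1.03 FPKM in MLL4SET-MKO and 2.47 FPKM in WT (log2 ratio -1.26, interval -1.69 to -0.83). Gadd45a, a growth arrest gene that ATF4 induces in atrophying muscle, had the highest, at 22.7 FPKM in MLL4SET-MKO and 11.9 FPKM in WT (log2 ratio 0.93, interval 0.64 to 1.23). Aldh18a1, a proline synthesis enzyme, had a log2 ratio of 0.70 and Sesn2, a leucine sensing inhibitor of mTORC1, one of 0.62, both called by the authors' q alone. Slc6a9 and Gadd45a each share a locus with 1 other row. The secreted stress signals of muscle, Fgf21 and Gdf15, were among the 7 listed targets that were not tested, and are named after their values were seen: Gdf15 stood at 0.258 FPKM in MLL4SET-MKO and 0.139 FPKM in WT, and Fgf21 at 0.0356 FPKM in MLL4SET-MKO and was listed at 0 in WT.

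Of 29 tested serine, glycine and folate genes besides Phgdh, Psat1 and Mthfd2, none was called higher and 1 lower, and none on the stricter reading. Their median log2 ratio was 0.01, and the shares over all tested rows were 4.44% higher and 7.41% lower. The most abundant genes of the list, Dld and Mat2a, had log2 ratios of 0.17 and 0.10. The genes around Mthfd2 in the mitochondrial branch, named for their place in the pathway after their values were seen, were either not called or not tested. Shmt2, which passes carbon from serine to folate in the mitochondrion, stood at 14.6 FPKM in MLL4SET-MKO and 14.2 FPKM in WT (log2 ratio 0.04, interval -0.27 to 0.34). Aldh1l2, which releases that carbon as carbon dioxide, had a log2 ratio of -0.01 (interval -0.34 to 0.32), and the mitochondrial folate carrier Slc25a32 one of -0.0036 (interval -0.31 to 0.30). Mthfd2l, the paralog of Mthfd2, stood at 2.09 FPKM in MLL4SET-MKO and 1.76 FPKM in WT (log2 ratio 0.25, interval -0.17 to 0.66). Mthfd1l was not tested and stood at 0.296 FPKM in MLL4SET-MKO and 0.158 FPKM in WT. Psph, the last enzyme of serine synthesis, was measured too imprecisely to place (log2 ratio 0.16, interval -2.00 to 2.31).

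In the glutathione list, to which the product of Chac1 belongs, 9 genes were tested (median log2 ratio -0.15). Of these, 1 was called higher and 1 lower, beside 4.44% and 7.41% of all tested rows, and 1 call held on the stricter reading. Oplah, the 5-oxoprolinase that returns the product of Chac1 to glutamate, fell to 7.44 FPKM in MLL4SET-MKO, against 18.5 FPKM in WT (log2 ratio -1.31, interval -1.58 to -1.05). Its locus is shared with 1 other row. It was the call that held (q = 2.86e-06, from the authors' statistic with Benjamini-Hochberg adjustment over all rows). Ggt7, named after its values were seen, stood at 0.956 FPKM in MLL4SET-MKO and 0.372 FPKM in WT and was the gene called higher. Chac2, the constitutive relative of Chac1, was not called, at 11.2 FPKM in MLL4SET-MKO and 13.2 FPKM in WT (log2 ratio -0.24, interval -0.61 to 0.14). The glutathione synthesis genes Gclc and Gclm, also named after their values were seen, had log2 ratios of 0.20 and -0.04 and were not called.

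Among 23 tested bZIP genes whose proteins can pair with ATF4, ATF3 or CHOP, 2 were called higher and 4 lower. Their median log2 ratio was -0.17, and the shares over all tested rows were 4.44% higher and 7.41% lower. Cebpb, an ATF4 partner at the composite element, stood at 69.1 FPKM in MLL4SET-MKO and 91.5 FPKM in WT (log2 ratio -0.40), and the row of Atf7 and Npff had a log2 ratio of -0.49. Cebpa had a log2 ratio of 0.71 and Jun, a partner of ATF3, one of 0.55. Cebpa stood at 5.93 FPKM in MLL4SET-MKO and 3.62 FPKM in WT. None of the 6 calls held on the stricter reading.

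Lists of neighbouring stress pathways are given beside the 11.8% of all tested rows called in either direction, and no difference from that share was tested. Of 20 cytosolic aminoacyl-tRNA synthetases, a class that ATF4 raises in many cells, 1 was called higher and none lower (median log2 ratio 0.04), and none on the stricter reading. The gene was Tars, at 23.2 FPKM in MLL4SET-MKO and 17.5 FPKM in WT (log2 ratio 0.41), while Nars had a log2 ratio of 0.22 and the row of Impdh2, Qars and Qrich1 one of -0.0028. None of 23 genes of the ATF6 and IRE1 branches was called by the authors' Cuffdiff q or on the stricter reading. Their median log2 ratio was -0.01, and their most abundant genes, the chaperones Hspa5 and Calr, had log2 ratios of 0.19 and 0.17. None of 16 mitochondrial stress sensors, chaperones and proteases was called either way, with a median of -0.03 and log2 ratios of -0.10 and 0.14 for Hspa9 and Hspd1.

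**Figure D5:**
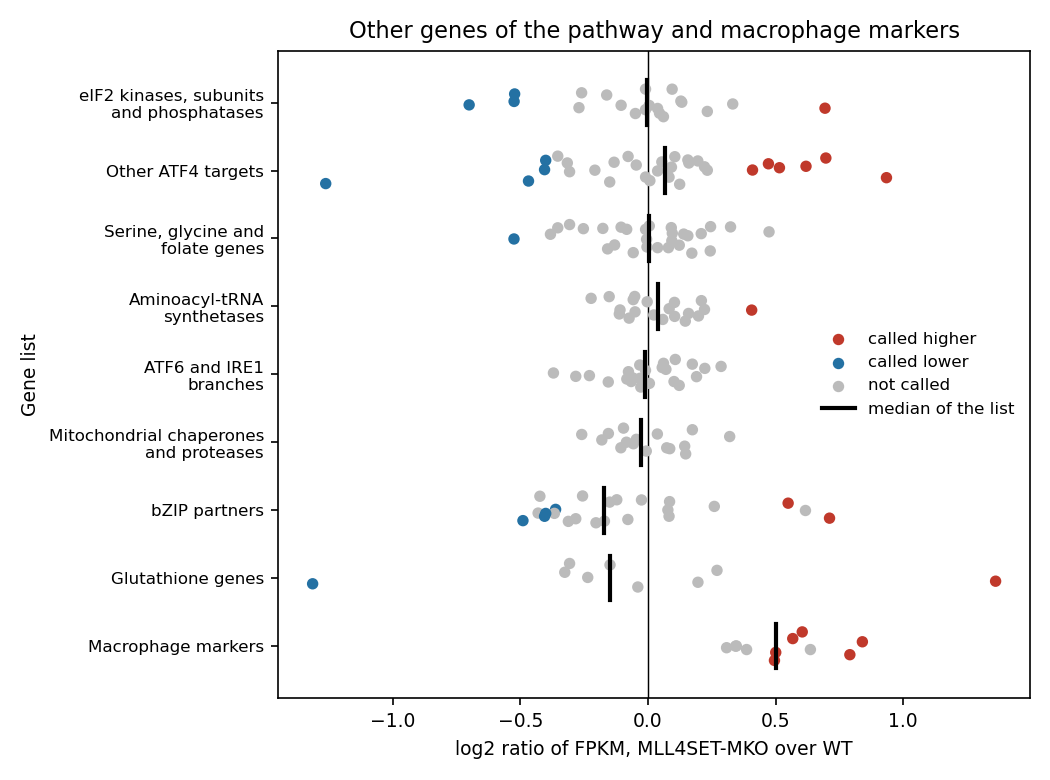
Log2 ratio of FPKM, MLL4SET-MKO over WT, of every tested gene of the 8 pathway lists and of the macrophage markers (1 point a row, red called higher, blue called lower, grey not called; black bars are medians). The pathway medians lie between -0.17 and 0.07, with calls on both sides in 4 of the 8 lists, and the macrophage markers all lie above 0 with a median of 0.50.

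Genes holding the element were called in both directions. TGATGNAA was found on either strand in 4 of the 12 windows of the 10 genes and in 3.97% of 32851 RefSeq windows of the same length. Of its 4 carriers, Atf3 was called higher, Chac1 lower, and Asns and Trib3 were not called. The variant TGACGNAA was found in 2 of the 12 windows and in 1.59% of all, and no match of either motif overlapped another in these windows. The cyclic AMP response element TGACGTCA and the ER stress response element (searched in its usual full-length form) had no match in the 12 windows, against 1.79% and 0.119% of all windows. All these motifs were chosen after the windows had been read, so the shares describe the windows and are no test. Among the other ATF4 targets, 10 of 31 genes with a window held TGATGNAA, beside 4.51% of all genes with a window. No carrier among these targets was called. Vldlr, Nupr1, Slc1a4, Got1, Herpud1, Jdp2, Pck2 and the row of Mafg, Pycr1 and Sirt7 were tested, while Fgf21 and Slc7a11 were not. These carriers are named after their values were seen. Over the whole table, 253 tested rows had the element in a window, of which 13 were called higher and 19 lower (12.6%, against 11.4% of the 9134 tested rows with a window). Their median log2 ratio was 0.01, against -0.03 for all rows with a window. A match is a stretch of letters and does not show that a factor binds there.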

How the data were processed

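RNA of gastrocnemius was sequenced from 3 MLL4SET-MKO and 3 WT mice with an NEBNext Ultra library kit, per the labels' protocols. Tools listed in the submitters' processing notes are TopHat2 2.0.14, Cufflinks 2.2.1, bcl2fastq and FastQC 0.11.3, with the build mm10 (GRCm38). The deposited table has the layout of Cuffdiff and gives 1 FPKM per gene and group, a test statistic (used as a score), a p-value and a q-value, per the file headers. The sources used here give neither the release of the annotation nor how libraries were scaled. A log2 fold change column, part of it spreadsheet error text, was not used, and 11 rows with failed estimates entered no comparison.

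Log2 ratios were computed from the authors' FPKM without a pseudocount (Python 3.11.15, pandas 2.3.3, scipy 1.17.1). Benjamini-Hochberg adjustment of the deposited p-values over the 13347 tested rows gave the authors' q-values within 0.0001. The smallest deposited p, 5e-05 (q = 0.000903), was reached by 739 rows, which q therefore leaves unranked. The normal deviate of the deposited p was 1.73 times the test statistic (median over rows with p from 0.0001 to 0.5). Standard errors and intervals use that factor and rest on the authors' model, not on single mice. The stricter reading takes the statistic itself as a normal deviate, adjusted over 13327 rows, since 20 had no number there. The calculation was tested on simulated data drawn with the same standard errors and factor. That simulation therefore cannot check the factor itself or the spread among mice.

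The members and lists were chosen with earlier results of these data known. Named are the 10 genes, Kmt2d and, of each list, up to 4 called genes of the largest log2 ratio in size with at least 1 FPKM in the higher group. Where fewer than 2 were called, the 2 most abundant were added. Of the 19 lists, 8 are pathways and 11 cell type markers. The markers beyond macrophages gave no call except Myf5 among satellite cell markers and Mylpf among fibre markers, both lower. That covers endothelial, fibroblast, smooth muscle and pericyte, adipocyte, Schwann cell and erythroid markers, with medians of -0.05, 0.08, -0.17, -0.0028, -0.02 and -0.09, and satellite cell and fibre markers, with medians of -0.44 and -0.11. No neutrophil or lymphocyte marker was tested. Locus coordinates are the authors', counted from 1. The value of 1 listed gene and of 1 marker is not reported here.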

Additional observations from a re-analysis of the deposited data

How the results depend on the processing

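No paired analysis was possible because the table holds 1 value per group and no single libraries, and for the same reason no replicate could be left out. Under the stricter reading of the statistic as a normal deviate, 1 of the 10 genes was called higher (Mthfd2) and 1 lower (Chac1), and q was 0.74 for Atf3 and 0.53 for Atf5. Over all rows that reading called 165 higher and 250 lower, against 592 and 989 by the authors' q. It left 3 of 22 calls on the pathway lists and 1 of 8 on the marker lists, with a row of several lists counted once. At q under 0.01, 1 of the 10 genes was called higher, since Atf3 was lost, with 374 higher calls over all rows and 14 on the pathway lists. With rows of 1 symbol and a locus of their own, 1 of the 10 was called lower, since Atf5 shares its locus. A minimum mean of 1 FPKM, which drops Trib3, kept the 4 calls. Pseudocounts of 0.1 and 1 FPKM, centring on the median and division by the group sum reversed no sign among the 10 log2 ratios. With a pseudocount of 1 FPKM, Mthfd2 had 1.05 and Trib3 -0.17, in place of 1.29 and -0.46. With the letters TGATGCAA alone, a choice made after seeing the data, 2 of the 10 genes held the element, against 1.03% of all genes with a window. These were Atf3 and Chac1, while Asns and Trib3 were lost. Of the 31 other ATF4 targets with a window, 9 held these letters. Over all tested rows with a window, 66 held them, of which 4 were called higher and 7 lower (16.7%, against 11.4%). These shares are no test.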
